A study of Mus musculus with 23 samples.

Results

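The 6 Dlx genes of the mouse encode homeodomain transcription factors and lie in 3 convergent pairs, Dlx1-Dlx2, Dlx3-Dlx4 and Dlx5-Dlx6. Open chromatin around them was described in maxillary prominence mesenchyme with the assay for transposase-accessible chromatin (ATAC-seq), in which a transposase cuts accessible DNA. Peaks of the 9 deposited lists that overlapped by 1 bp or more were merged into regions. A region belonged to the family when the protein-coding gene nearest to its summit, within 100 kb, was a Dlx gene. This rule gave 39 Dlx regions of 118102 regions in all, 17 for Dlx1-Dlx2, 14 for Dlx3-Dlx4 and 8 for Dlx5-Dlx6.

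All 3 groups were wild-type C57BL/6 embryos with no treatment or mutant allele, and were defined by age: embryonic day 10.5 (E10.5), 11.5 (E11.5) and 12.5 (E12.5). Each stage had 3 biological samples, called samples 1 to 3, and 1 peak list per sample was used. The samples also differed in library runs: E11.5 samples 1 and 2 had 1 each, and every other sample had more. The mesenchyme was obtained by peeling the ectoderm off the dissected prominence after Dispase digestion. The sources used here do not state how many embryos each sample pooled, so the spread between samples is that between these preparations.

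Dlx genes are vertebrate relatives of fly Distal-less. In the facial prominences Dlx1 and Dlx2 are known as the family members shared by the upper and lower jaw primordia, while Dlx5 and Dlx6 are known for the lower jaw, where endothelin signalling through Ednra switches them on and they act upstream of Hand2. Dlx3 and Dlx4 are best known from ectoderm, placenta, teeth and bone. Each pair shares enhancers, of which those between the 2 genes of a pair and those in the flanking desert are the best studied.

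In the deposited lists, 6 of the 39 regions were called repeatedly. They were the region spanning the start of Dlx1, the region spanning the start of Dlx2, and a region between these genes. The others lay in the first part of Dlx6, between Dlx6 and Dlx5, and at the start-side end of Dlx5. Each of the 6 regions was called by 5 or more of the 9 lists, with calls from all 3 stages. The start bases of Dlx1 and Dlx2 themselves were under peaks of 3 lists each. Among all regions 7.13% were called by 5 or more lists. None of the 14 Dlx3-Dlx4 regions was called by more than 2 lists. How many of all regions were called by more than 2 lists is not given here, so the Dlx3-Dlx4 calls are not read as few. No Dlx region was called by all 3 lists of one stage and by none of another stage. Over all regions such calls made up 0.785% to 1.79% in the 3 stage comparisons. Because E11.5 sample 1 called no Dlx region, none could be called by all 3 E11.5 lists.

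The Dlx1 and Dlx2 promoters are shown because both starts lay under peaks, at different places relative to the start. The sequences are the 250 bases before the RefSeq start on the GRCm38.p6 assembly, whose coordinates are those of mm10. They cover chr2:71529195-71529444 on the plus strand for Dlx1 and chr2:71546755-71547004 on the minus strand for Dlx2. Of the 6 Dlx genes, 2 had an entry in the RefSeq promoter table. Capitals mark a CCAAT box (CCAAT or its reverse complement ATTGG), an E-box (CACGTG) or a GC box (GGGCGG or CCGCCC).
Dlx1: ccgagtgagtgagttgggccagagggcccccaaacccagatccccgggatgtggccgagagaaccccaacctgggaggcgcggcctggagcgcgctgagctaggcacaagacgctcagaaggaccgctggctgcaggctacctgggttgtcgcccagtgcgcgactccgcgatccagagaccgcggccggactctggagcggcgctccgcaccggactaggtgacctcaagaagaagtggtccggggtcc
Dlx2: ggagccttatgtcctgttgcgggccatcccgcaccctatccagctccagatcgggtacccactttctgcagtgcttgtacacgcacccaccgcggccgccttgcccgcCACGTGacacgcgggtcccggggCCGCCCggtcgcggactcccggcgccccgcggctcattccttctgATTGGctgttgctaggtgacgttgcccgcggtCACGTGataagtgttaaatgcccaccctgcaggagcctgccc

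Both windows were rich in CpG dinucleotides. The Dlx1 window held 22 and the Dlx2 window 24, against a median of 10 over the 17274 promoter windows of the table, and their GC contents were 68% and 66.4% against a median of 55.6%. In the Dlx2 window E-boxes lay 142 and 42 bases before the start. A GC box lay 119 bases and a CCAAT box 74 bases before it, both on the opposite strand. CACGTG occurred in 6.72% of all windows, GGGCGG in 43.2% and CCAAT in 36.7%, counting both strands. In the Dlx1 window none of these letters occurred, and neither TATAAA (12.5% of all windows) nor the homeodomain core TAATTA (4.38%) was present in either window. None of the motifs overlapped another, and a match in letters is a description of the sequence only.

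Every base of the Dlx1 window lay under a peak of at least 1 list, and 6 lists had a peak reaching into it. In the Dlx2 window 193 of the 250 bases lay under a peak and 3 lists reached into it. The base of the start itself was under a peak in 3 lists for each gene: E10.5 samples 1 and 2 and E11.5 sample 2 for Dlx1, and E10.5 sample 2 and E11.5 samples 2 and 3 for Dlx2. Among the genes of the promoter table, 29.6% had their start under a peak of 3 or more lists.

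The lists differed greatly in length, which bears on every count of calls. They held 14886 to 19095 peaks at E10.5, 5682, 24908 and 41457 in E11.5 samples 1, 2 and 3, and 19139 to 50361 at E12.5. The files hold no read counts, so the sequencing depth is unknown. The shortest list, E11.5 sample 1, called 0 of the 39 Dlx regions. Of 8 mesenchyme marker genes, 0 to 4 had a peak within 1 kb of the start in a list (1 to 4 without E11.5 sample 1). Twist1 and Twist2 had one in 5 or more lists, while Pdgfra, Alx4 and Tfap2a had one in no list. Of 7 ectoderm markers 0 to 2 had one, none in 5 or more lists, and Krt5, Krt14 and Cldn6 had one in no list. The ranges were 0 to 3 of 5 for endothelium (Pecam1 and Tek in no list), 0 to 4 of 5 for blood (Ptprc in no list), 1 to 3 of 5 for neurons (Stmn2 in no list) and 0 to 2 of 4 for forebrain GABA neurons (Gad1 in no list). Kdr, Klf1, Elavl4, Syt1 and Gad2 had one in 5 or more lists. The share of all genes with such a peak is not given here, so the marker counts are not read as high or low for any cell type. The part of other cells in the Dlx calls was not tested.

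**Figure D1:**
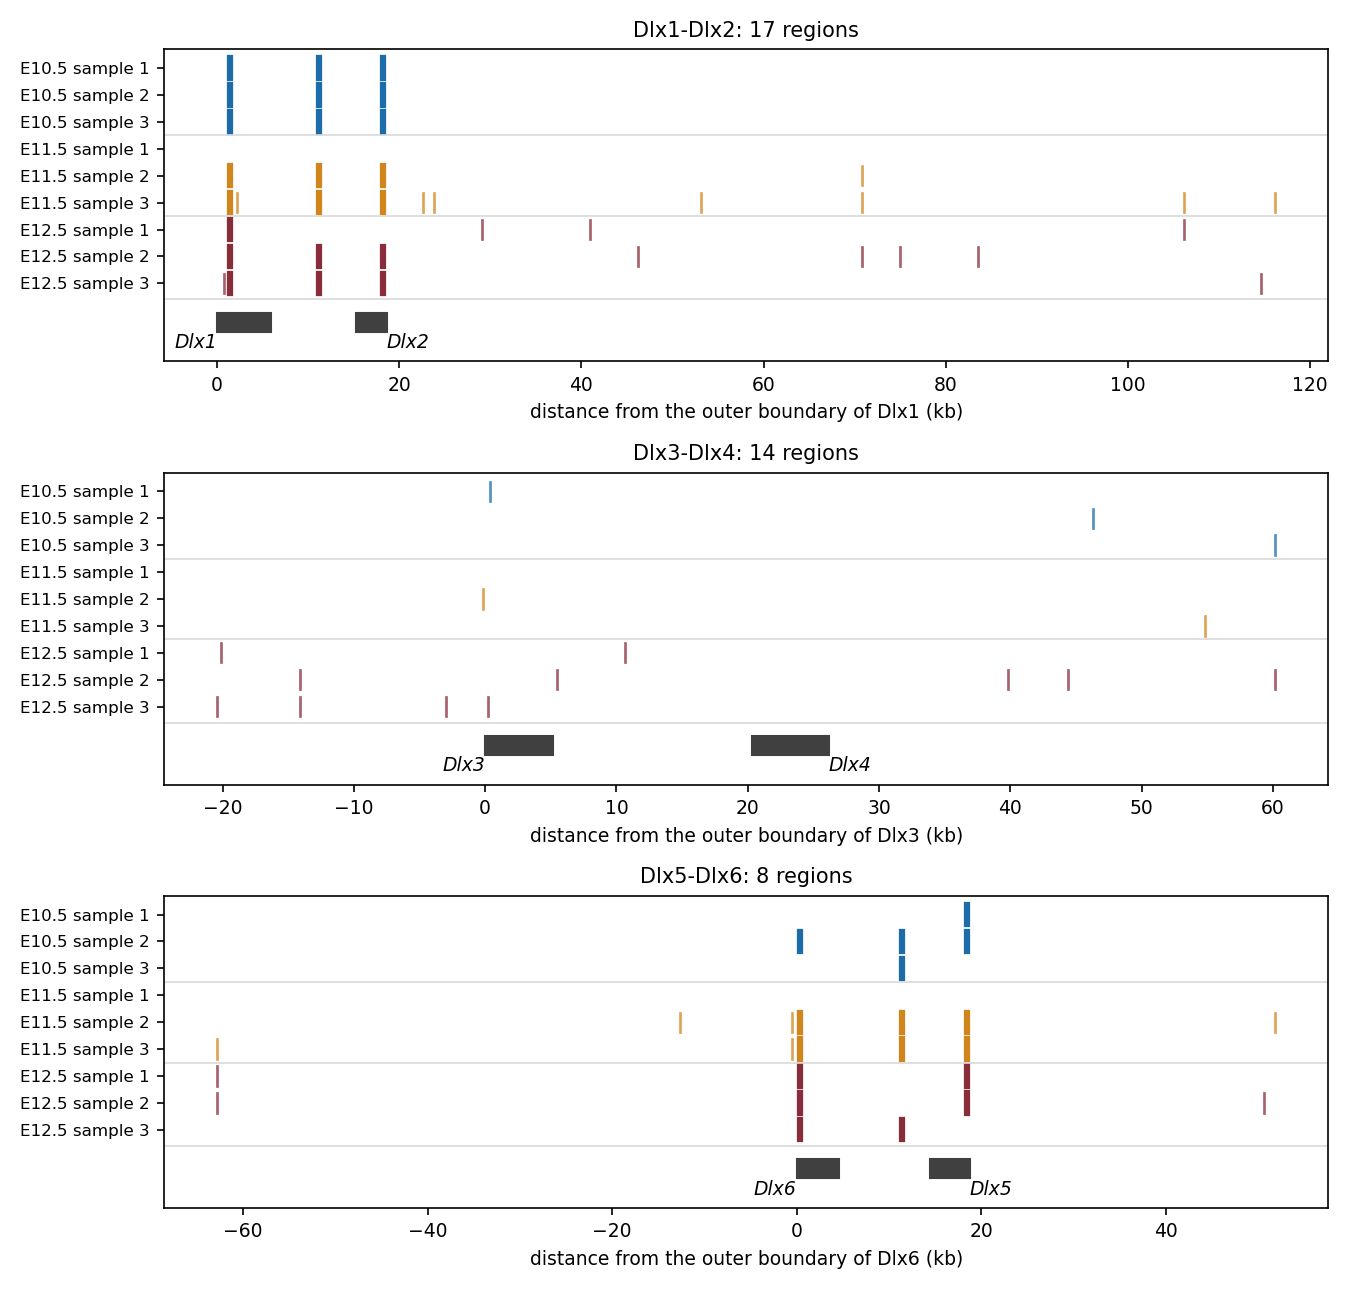
Positions of the 39 Dlx regions along each pair, in kb from the outer boundary of the gene with the lower coordinates (x axis), with 1 row per peak list. Each tick is a region called by that list, thick where 5 or more lists called it, and grey boxes are gene bodies. Thick ticks stand at both genes and between them at Dlx1-Dlx2 and Dlx5-Dlx6, Dlx3-Dlx4 has none, and the row of E11.5 sample 1 is empty.

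Dlx1 (mm10 chr2:71528113-71533981, plus strand) had 3 regions, all inside its annotated body. The main one, chr2:71529062-71529906, is 845 bp long, spans the start at position 71529445 and was called by 8 lists, all but E11.5 sample 1. Its summit enrichment over background, given by the authors' peak caller as a ratio and called the fold from here on, was 2.86, 2.52 and 2.10 in E10.5 samples 1 to 3. It was 4.76 and 3.29 in E11.5 samples 2 and 3, and 3.09, 2.67 and 2.64 in E12.5 samples 1 to 3. The −log10 q-values of these peaks ran from 1.81 (E10.5 sample 3) to 7.50 (E11.5 sample 2). Folds depend on how each list was built and are not compared between stages. The median fold over all peaks was 5.06, 4.98 and 3.13 in the E11.5 lists, 2.56 to 3.13 in the E10.5 lists and 2.47 to 3.50 in the E12.5 lists.

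Within the Dlx1 region the summits fell on both sides of the start. They lay 44, 53 and 283 bp upstream of it in E10.5 samples 1 to 3, written as -44, -53 and -283. In E11.5 samples 2 and 3 they lay 196 and 255 bp downstream of the start. In E12.5 samples 1 to 3 they lay upstream of the start again, at -353, -278 and -275. All these summits lay within the annotated body, which extends upstream of this start. Thus the E11.5 and E12.5 summits did not overlap in position. The E11.5 sample 3 peak (71529594-71529773) shared no base with any E12.5 peak. The E11.5 sample 2 peak (71529296-71529906) overlapped that of E12.5 sample 2 (71529062-71529377). At most 6 of the 8 lists shared a base, over the 25 bp 71529139-71529163. With 2 against 3 lists an exact two-sided test over samples cannot reach 0.05, and the pattern was noticed in these values, so no test is given.

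The other 2 Dlx1 regions were called by 1 list each, one 199 bp long by E12.5 sample 3 and one 152 bp long by E11.5 sample 3. The antisense transcript Dlx1as (chr2:71530638-71537891) overlapped none of the Dlx regions.

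Dlx2 (chr2:71543408-71546754, minus strand) had 14 regions, the most of the family. The region at its start, chr2:71545810-71546947, is 1138 bp long and was called by 7 lists, all but E11.5 sample 1 and E12.5 sample 1. Its folds were 2.82, 2.16 and 2.59 in the E10.5 lists, 5.18 and 3.07 in E11.5 samples 2 and 3, and 2.47 and 2.17 in E12.5 samples 2 and 3. The −log10 q-values ran from 1.55 (E12.5 sample 3) to 10.4 (E11.5 sample 2). Here all summits were inside the gene. Those of the E10.5 lists lay 358, 351 and 367 bp from the start, followed by 283 and 404 bp in E11.5 samples 2 and 3, and 702 and 410 bp in E12.5 samples 2 and 3. A core of 167 bp (71546185-71546351) was shared by 6 of the 7 lists.

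The interval between Dlx1 and Dlx2 held a single region, chr2:71538881-71539721 (841 bp), 4.11 kb from the end of Dlx2. It was called by the same 7 lists as the region at the Dlx2 start. The folds of its strongest peaks were 3.24, 2.57 and 2.88 in the E10.5 lists, 3.26 and 2.97 in E11.5 samples 2 and 3, and 2.28 and 2.82 in E12.5 samples 2 and 3. Its −log10 q-values were 5.07, 5.85 and 6.37 at E10.5, 2.97 and 4.20 in E11.5 samples 2 and 3, and 2.46 and 3.48 in E12.5 samples 2 and 3. When only peaks with a −log10 q of at least 5 were kept, the region was called by the 3 E10.5 lists and by no later list. Under that setting 3.09% of all regions were called by all lists of one of the stages E10.5 and E11.5 and none of the other, and 1.19% for E10.5 and E12.5. In lists cut to an equal length of 5682 peaks, the 3 E10.5 lists and E12.5 sample 3 called it. A q-value depends on depth, whose part in these calls was not tested. At most 5 of the 7 lists shared a base, over 71539253-71539293.

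**Figure D2:**
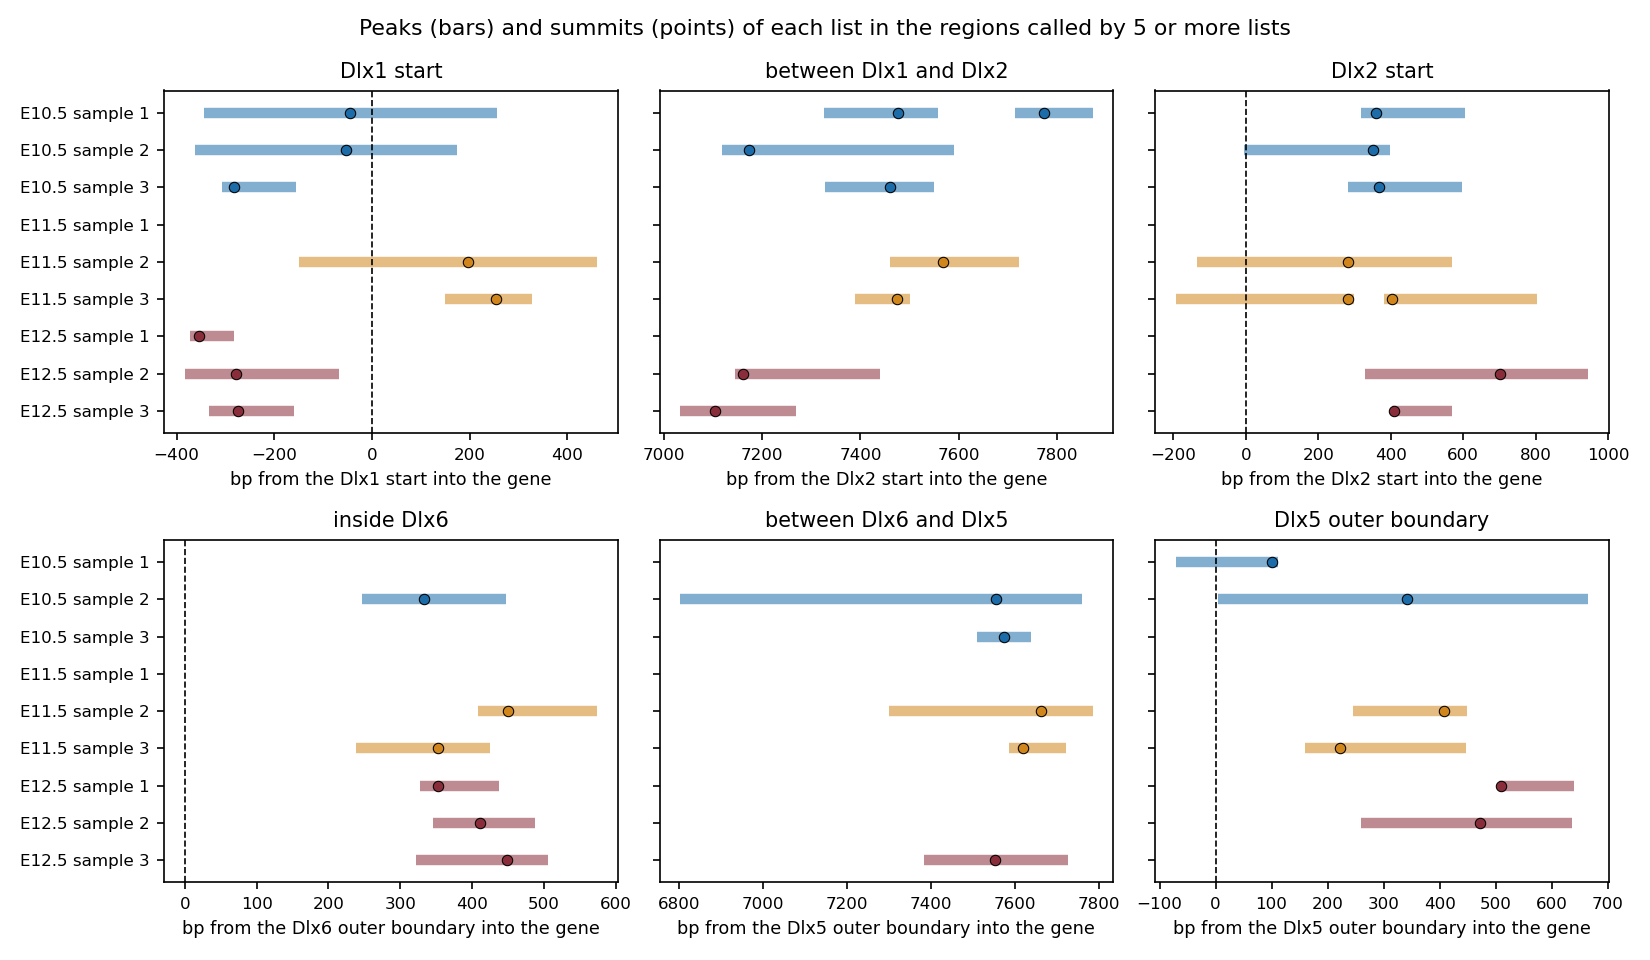
Peaks (bars) and summits (points) of each list in the 6 regions called by 5 or more lists. The x axis is the distance in bp from the RefSeq start (Dlx1, Dlx2) or the outer gene boundary (Dlx5, Dlx6), positive into the gene and beyond it, with a dashed line at 0. Blue is E10.5, orange E11.5 and red E12.5. At Dlx1 both E11.5 summits lie downstream of the RefSeq start and all E12.5 summits lie upstream of it, all within the annotated gene body.

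Beyond the Dlx2 start, 12 regions lay outside the pair, all on the Dlx2 side, between 3.98 and 97.57 kb from the gene. The gene Metap1d lies 2.9 kb beyond the Dlx1 end of the pair, whereas the neighbour on the Dlx2 side, Itga6, lies 240.1 kb away. Of these 12 regions 10 were called by a single list. The region chr2:71598878-71599076, 52.19 kb from Dlx2, was called by E11.5 samples 2 and 3 and E12.5 sample 2, with folds from 2.92 to 3.40. The region chr2:71634190-71634404, 87.55 kb away, was called by E11.5 sample 3 and E12.5 sample 1, with folds from 3.32 to 4.51. The member nearest to the 100 kb limit lay 97.57 kb from Dlx2 and was called by E11.5 sample 3. The first regions beyond the limit whose nearest gene was Dlx2 lay 106.78, 108.37 and 109.26 kb away and were called by 1, 4 and 6 lists.

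No E10.5 list called any of the 14 Dlx1-Dlx2 regions that were called by fewer than 5 lists. The number expected there for the E10.5 lists was 3.22 calls, from a model in which each list has its own tendency to call and each region its own tendency to be called. The E11.5 lists made 8 calls there (5.67 expected), 7 of them from sample 3, and the E12.5 lists 9 calls (8.12 expected). At the 3 repeated regions the E10.5 lists instead made all 9 of 9 possible calls (7.21 expected), the E11.5 lists 6 (6.70 expected) and the E12.5 lists 7 (8.09 expected). Since the expected calls are fitted with the total calls of each region held fixed, fewer calls in one stage imply more in another.

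Dlx5 (chr6:6877801-6882068) and Dlx6 (chr6:6863334-6867970) had 4 regions each. The files and tables used give no start for these genes, so distances are from the outer gene boundary, where convergent genes begin. The Dlx6 region, chr6:6863572-6863908 (337 bp), lies within the gene and was called by 6 lists. Its fold was 2.98 in E10.5 sample 2, 4.13 and 4.14 in E11.5 samples 2 and 3, and 5.19, 2.81 and 3.06 in E12.5 samples 1 to 3. E10.5 samples 1 and 3 and E11.5 sample 1 did not call it. All 6 lists shared 18 bp, 6863742-6863759, and the summits lay within 117 bp of each other, 333 to 450 bp inside the boundary. Within its own list, the fold of this peak stood at percentiles from 28.0 (E11.5 sample 2) to 98.0 (E12.5 sample 1), with a median of 79.3 over the 6 lists. The corresponding medians were 36.9 at the Dlx1 start, 46.7 between Dlx1 and Dlx2, 47.8 at the Dlx2 start, 29.3 between Dlx6 and Dlx5 and 33.3 at the Dlx5 boundary.

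The Dlx6 region also overlaps 2 noncoding transcripts, Dlx6os1 (chr6:6820543-6871627), known as Evf2, and Dlx6os2 (chr6:6863797-6865150). Of the other Dlx6 regions, chr6:6862664-6862948, 0.45 kb outside the boundary, was called by E11.5 samples 2 and 3 and by no E10.5 or E12.5 list. Its folds were 6.06 in sample 2, at percentile 67.0 of that list, and 2.96 in sample 3, at percentile 38.3. That region and a 332 bp region 12.51 kb out, called by E11.5 sample 2, also lie within Dlx6os1. The farthest, chr6:6800316-6800757, 62.78 kb out, was called by E11.5 sample 3 and E12.5 samples 1 and 2, with folds from 2.88 to 4.16.

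Dlx5 carried a region at its outer boundary, chr6:6881403-6882139 (737 bp), called by 6 lists. The folds were 2.72 and 3.04 in E10.5 samples 1 and 2, 4.06 and 2.85 in E11.5 samples 2 and 3, and 3.33 and 2.55 in E12.5 samples 1 and 2. The boundary base itself, 6882068, was under the peak of E10.5 sample 1 alone. The summits lay 100 and 342 bp inside the boundary in the E10.5 lists, 408 and 223 bp in the E11.5 lists, and 509 and 473 bp in the E12.5 lists. At most 4 of the 6 lists shared a base.

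Between Dlx6 and Dlx5 a single region, chr6:6874283-6875266 (984 bp), 3.29 kb from Dlx5, was called by 5 lists. Its folds were 2.97 and 2.35 in E10.5 samples 2 and 3, 4.08 and 2.87 in E11.5 samples 2 and 3, and 3.68 in E12.5 sample 3. The 5 summits lay within 109 bp and all 5 peaks shared the 55 bp 6874429-6874483. Both E11.5 lists that called any Dlx region, and E10.5 sample 2, called all 3 of the repeated Dlx5-Dlx6 regions. The remaining lists called 1 or 2, or in E11.5 sample 1 none. Over the 3 regions the E10.5 lists made 5 of 9 possible calls (5.03 expected), the E11.5 lists 6 (5.26 expected) and the E12.5 lists 6 (6.72 expected). The other 5 Dlx5-Dlx6 regions had 0 calls at E10.5 (1.62 expected), 5 at E11.5 (2.67 expected) and 3 at E12.5 (3.71 expected).

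**Figure D3:**
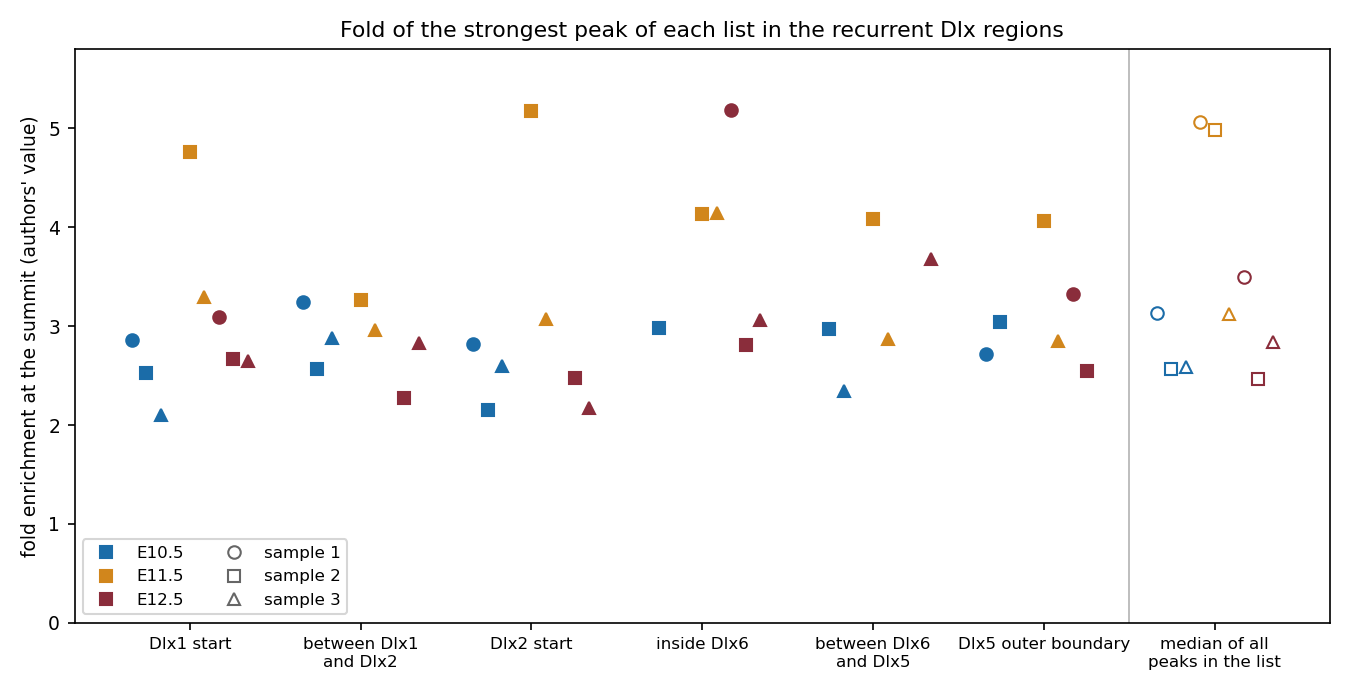
Fold enrichment at the summit (y axis, the authors' value) of the strongest peak of each list in the 6 regions called by 5 or more lists, with the median fold of all peaks in each list at the right (open symbols). Colours mark stage and symbols the sample. The Dlx values lie between 2.10 and 5.19, and the medians of the lists between 2.47 and 5.06.

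Dlx3 (chr11:95120117-95125296) and Dlx4 (chr11:95140447-95146294) had 9 and 5 regions, 12 of these 14 called by a single list. At Dlx1-Dlx2 12 of 17 regions were called by a single list, at Dlx5-Dlx6 3 of 8, and over all regions 68.8%. A peak within 1 kb of the outer boundary was present in 3 lists for Dlx3, in E10.5 sample 1, E11.5 sample 2 and E12.5 sample 3, each with a peak at a different place. For Dlx4 it was present in 0 lists, and for Dlx5 and Dlx6 in 6 each. Counted instead from the RefSeq start, which for Dlx1 lies inside the outer boundary, it was present in 8 lists for Dlx1 and 7 for Dlx2. How many lists held such a peak for genes in general is not given here. No region lay inside Dlx4, and its noncoding neighbour Dlx4os overlapped none.

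The 2 regions of this pair called by 2 lists were distal. The region chr11:95105727-95106229, 14.04 kb outside Dlx3, was called by E12.5 samples 2 and 3, with folds of 2.49 and 2.57. The region chr11:95180098-95180480, 34.0 kb outside Dlx4, was called by E10.5 sample 3 and E12.5 sample 2, with folds between 2.34 and 2.48. The folds of all 14 regions ran from 2.05 to 3.47.

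Calls at Dlx3 were unevenly spread over the stages. The E10.5 lists called 1, 0 and 0 of its 9 regions, the E11.5 lists 0, 1 and 0, and the E12.5 lists 2, 2 and 4. The numbers expected were 0.57, 0.76 and 0.50 from the E10.5 lists, 0.13, 1.12 and 2.08 from the E11.5 lists, and 1.17, 2.93 and 0.74 from the E12.5 lists. E12.5 sample 3 therefore stood out with 4 calls where 0.74 were expected, while E12.5 sample 2 called fewer than expected.

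To compare the stages gene by gene, the called minus the expected regions of a gene were divided by the square root of their expected variance in each list. These residuals were tested with limma over 7339 protein-coding genes, each with at least 5 regions that some but not all lists called, with Benjamini-Hochberg adjustment and a threshold of 0.05. Dlx2, Dlx3 and Dlx4 could be tested. Dlx1 with 3 regions and Dlx5 and Dlx6 with 4 each had too few. None of the 3 tested Dlx genes passed in any comparison. Of all genes tested, 0.191% passed for E11.5 minus E10.5, 0.0136% for E12.5 minus E10.5 and 3.2% for E12.5 minus E11.5.

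Dlx3 came nearest. Its mean residual was 1.38 ± 2.37 (SD, n = 3) at E12.5, -0.72 ± 0.83 (SD, n = 3) at E11.5 and -0.35 ± 0.82 (SD, n = 3) at E10.5. The difference E12.5 minus E11.5 was 2.10 ± 0.874 (SE), with an unadjusted p of 0.0182 and an adjusted p of 0.187 in limma. The SE, like every limma SE here, reflects mostly the spread shared by all genes (prior degrees of freedom 100.2), not the gene's own SDs. At an unadjusted p below 0.05, 1263 of all genes would be called in that comparison. Without E12.5 sample 3 the difference was 1.21 (adjusted p = 0.516, limma), and without E12.5 sample 2 it was 2.99 (adjusted p = 0.0722, limma). The E12.5 and E11.5 residuals overlapped, since E12.5 sample 2 (-0.67) lay below E11.5 samples 1 (-0.37) and 2 (-0.12). For E12.5 minus E10.5 the difference was 1.73 (limma adjusted p = 0.571), and for E11.5 minus E10.5 it was -0.37 (limma adjusted p = 0.940).

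For Dlx2 the limma differences were 0.61, 0.33 and -0.29 for E11.5 minus E10.5, E12.5 minus E10.5 and E12.5 minus E11.5, each ± 0.844 (SE), with adjusted p of 0.881, 0.948 and 0.898. The E11.5 residuals of Dlx2 ran from -1.08 in sample 1 to 2.04 in sample 3, so the spread within that stage exceeded every difference between stages. The Dlx4 differences were -0.99, -0.65 and 0.35, each ± 0.841 (SE), with limma adjusted p of 0.782, 0.887 and 0.877.

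**Figure D4:**
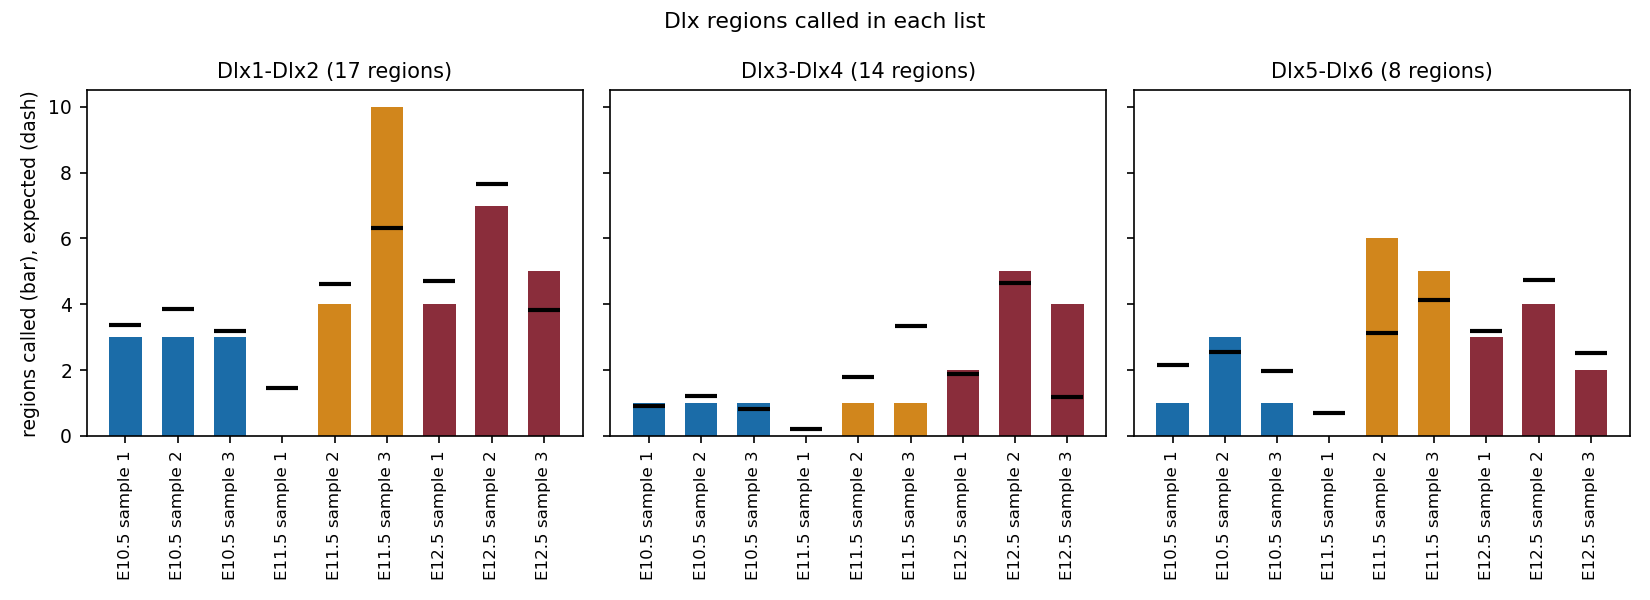
Number of Dlx regions called by each peak list (bars, y axis) for the 3 pairs, with the number expected from the list and region tendencies (black dashes); blue is E10.5, orange E11.5 and red E12.5. E11.5 sample 3 called 10 Dlx1-Dlx2 regions where 6.31 were expected, and E12.5 sample 3 called 4 Dlx3-Dlx4 regions where 1.19 were expected.

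By single regions, 0 of the 39 Dlx regions were called by all 3 lists of one stage and none of the other in any of the 3 stage comparisons. Over all regions the shares were 0.792% for E11.5 and E10.5, 0.785% for E12.5 and E10.5 and 1.79% for E12.5 and E11.5. Because E11.5 sample 1 called no Dlx region, none could be called by all 3 E11.5 lists. Without that list, 2 Dlx regions were called by both other E11.5 lists and by no E10.5 list, chr6:6862664-6862948 at Dlx6 and chr2:71598878-71599076 beyond Dlx2. Over all regions, the share called by every list of one of these stages and none of the other, in either direction, was then 4.76%. Of the 39 regions, 30 were called by no E10.5 list, 20 by no E11.5 list and 12 by no E12.5 list, which is 76.9%, 51.3% and 30.8%. Over all regions the shares were 71.8%, 58.8% and 38.2%. Of the 30, 5 were called by 2 or more later lists (12.8% of the Dlx regions, 13.6% of all regions), 2 each beyond Dlx2 and Dlx6 and 1 beyond Dlx3.

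Read by gene, the region called by most lists had 8 for Dlx1, 7 for Dlx2, 6 for Dlx5 and Dlx6, and 2 for Dlx3 and Dlx4. Of all 21631 protein-coding genes, 33% had an assigned region called by 5 or more lists, and 4 of the 6 Dlx genes did. As many lists as Dlx1 or more were reached by 11.9% of genes, as many as Dlx2 by 18.6%, as many as Dlx5 and Dlx6 by 25.7% and as many as Dlx3 and Dlx4 by 66.2%. In this order the neighbours Dlx1 and Dlx2 differed by 1 list of 9, E12.5 sample 1, and the counts of Dlx2 and of Dlx5 and Dlx6 also differed by 1, which no test here separates.

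Of 28 genes of the surrounding pathway, 24 could be tested with limma, and 1 passed. It was Mef2c, a transcription factor gene acting between the endothelin receptor and Dlx5-Dlx6 in the jaw. Of its 12 regions the E10.5 lists called 2 each, the E11.5 lists 3, 11 and 7, and the E12.5 lists 0 each. Its residual was 3.63 ± 0.863 (SE) higher at E11.5 than at E10.5 (limma adjusted p = 0.0335) and changed by -6.27 from E11.5 to E12.5 (limma adjusted p = 4.74e-07). The first of these calls was lost on leaving out any 1 list other than E11.5 sample 3, with a limma adjusted p of 0.0621 to 0.254 and a difference of 3.35 to 3.67. The second was kept without each list in turn. None of the 16 tested partners and downstream genes passed in either direction. The median difference of the 24 genes was -0.29, -0.54 and 0.16 for the 3 comparisons, beside -0.18, 0.05 and 0.28 over all genes tested. Ednra, the endothelin receptor gene, had a peak within 1 kb of its start in all 9 lists, E11.5 sample 1 included, where no Dlx region was called. Of the 28 genes 5 had such a peak in 5 or more lists, 3 of the 11 upstream genes and 2 of the 17 partners and downstream genes. The share of all genes with such a peak is not given here, so these counts are not read as high or low.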

How the data were processed

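Per the labels, 23 ATAC-seq library runs belong to 9 samples, and 1 deposited peak list per sample was used. The submitters' processing notes name Bowtie2, MACS2, deepTools 3.3.1 and mm10. The sources used here do not state the read filters, the transposase offset or the caller threshold. For every peak the deposited files hold, per the authors' peak caller, a fold enrichment at the summit (a ratio), −log10 p-values and −log10 q-values, and the summit position. They were used to describe, rank and filter peaks within a list, and values of several lists are set side by side without a test.

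Peaks on the 19 autosomes and X that overlapped by 1 bp or more were merged. The summit with the highest −log10 q was assigned to the nearest of 21631 RefSeq protein-coding gene bodies (GRCm38.p6) within 100 kb, ties to the nearest boundary. The gene table gives no exons, so exonic and intronic positions are not stated. For genes other than Dlx without an entry in the promoter table, a start means either boundary.

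Expected calls came from a conditional Rasch model of list and region (Python 3.11.15, NumPy 2.4.6, pandas 2.3.3). Residuals were fitted in limma 3.58.1 (R 4.3.3; prior degrees of freedom 100.2) over all 9 lists with stage as factor, and p-values were adjusted by Benjamini-Hochberg over 7339 genes. The fit was also run on simulated data, with changes placed only at E12.5 and only in genes with more regions than Dlx3 or Dlx4. Changes in genes with as few regions as these, or at E11.5, were not simulated. Alternatives changed peak stringency, list length, overlap, distance, assignment, expected calls, gene minimum, replicate block and the lists used.

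The rule for names took all 6 Dlx genes, with values per list for regions called by 5 or more lists, covering a Dlx start, or gained or lost between stages. Pathway genes were named where they passed the test or had a peak near the start in all 9 lists. Flanking genes and other distal regions that are named were chosen after their values were seen. The members, gene lists and tests were chosen with earlier results of these data known.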

Additional observations from a re-analysis of the deposited data

How the results depend on the processing

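Depth is unknown, so a region missing from a list is not shown to be closed. Of 17 alternatives per comparison, 15 could test a Dlx gene, and in these 0 Dlx genes passed the limma threshold; Dlx3 or Dlx4 had too few regions in some of the 15. The stricter peaks and the use of regions called by 2 to 8 lists left no Dlx gene to test. The adjusted p of Dlx3 for E12.5 minus E11.5 ranged from 0.0722 to 0.541. The calls showed no pairing by the shared sample numbers. Correlations of same-numbered samples ran from -0.096 to 0.015, and samples did not all correlate best with their own number. Whether samples with the same number shared a litter or a batch cannot be told from these correlations. With the number as a replicate block, 25, 1 and 247 genes passed for E11.5 minus E10.5, E12.5 minus E10.5 and E12.5 minus E11.5, against 14, 1 and 235 without it, and 0 Dlx genes. Over all alternatives these counts ranged from 0 to 52, 0 to 9 and 36 to 247. The Mef2c call for E11.5 minus E10.5 was also lost with stricter peaks (0.72, adjusted p = 0.913, limma), with regions called by 2 to 8 lists (2.79, 0.0829) and within 20 kb (2.96, 0.169), and that for E12.5 minus E11.5 with stricter peaks (-1.94, 0.144).

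Keeping only peaks with a −log10 q of at least 5 left 4, 0 and 5 regions at Dlx1-Dlx2, Dlx3-Dlx4 and Dlx5-Dlx6, of which 0, 0 and 0 were called by 5 or more lists. The stage rule then gave 1 Dlx region for E11.5 and E10.5 (3.09% of all regions) and 1 for E12.5 and E10.5 (1.19%). Equal-length lists left 6, 0 and 4 regions, 0 called by 5 or more lists, and 1 Dlx region under the stage rule for E11.5 and E10.5 (3.66% of all regions). A 20 kb limit left 8, 9 and 5 regions. Counting every region within 100 kb of a Dlx gene, whichever gene is nearest, gave 27 at Dlx3-Dlx4. Leaving out 1 list at a time, chosen for the region counts after seeing the data, gave 12 to 18, 11 to 14 and 6 to 9 regions. The numbers called by 5 or more lists were then 3 to 3, 0 to 0 and 1 to 3, the 1 without E10.5 sample 2. The stage rule gave 0 to 2 Dlx regions for E11.5 and E10.5 (2 without E11.5 sample 1, 4.76% of all regions) and 0 to 1 for the other comparisons. For E12.5 and E10.5 the 1 appeared when E10.5 sample 2 (1.26% of all regions), or sample 1 (2.60%) or 3 (5.06%) of E12.5, was left out. For E12.5 and E11.5 it appeared when sample 1 of E11.5 (6.33%) or of E12.5 (4.02%) was left out. Stricter peaks, equal-length lists and left-out lists hold fewer peaks by construction.

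Some differences that had not passed changed sign, and the cause was not tested. For Dlx2, E11.5 minus E10.5 was -2.11 with equal-length lists, -0.16 within 20 kb and, leaving out lists in turn, -0.33 (no E11.5 sample 3) to 1.33. E12.5 minus E10.5 was -0.85 with equal-length lists, -1.16 within 20 kb and, in turn, -0.12 (no E11.5 sample 2) to 0.78. E12.5 minus E11.5 was 1.26 with equal-length lists and, in turn, -0.94 to 0.89 (no E11.5 sample 3). For Dlx3, E11.5 minus E10.5 ran from -0.69 to 0.12, above 0 when E10.5 sample 1 (0.12) or sample 3 of E11.5 (0.11) was left out.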

Other observations

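The Dlx pairs lie in intervals of different size between their protein-coding neighbours. Between Metap1d and Itga6, 261.7 kb around Dlx1-Dlx2, the lists held 30 regions. Between Itga3 and Tac4, 184.7 kb around Dlx3-Dlx4, they held 21. Between Sem1 and Sdhaf3, 377.3 kb around Dlx5-Dlx6, they held 11. Per 100 kb these are 11.5, 11.4 and 2.92 regions. The density over the whole genome is not given here, so none of these is read as high or low.

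Regions beyond the assignment rule were 13, 7 and 3 in these intervals. The one called by most lists, chr2:71655835-71656351, lay 109.26 kb beyond Dlx2 and was called by 6 lists: all 3 E10.5 lists, E11.5 samples 2 and 3 and E12.5 sample 3. Its neighbour chr2:71654816-71655298, 108.37 kb beyond Dlx2, was called by all 3 E12.5 lists and E11.5 sample 3, and by no E10.5 list. Both had Dlx2 as their nearest gene and fell outside the 100 kb limit. On the Dlx4 side, chr11:95210461-95211003 and chr11:95224728-95225355, 64.56 and 78.89 kb out and nearer to Tac4, were called by 3 lists each. On the Dlx5 side, chr6:6949677-6949929, 67.7 kb out and nearer to Sdhaf3, was called by 3 lists, 1 per stage. These regions were picked out after their values were seen, and which gene any of them regulates was not tested.

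The most frequently called region of the flanking genes had 6 lists for Hat1, 3 for Metap1d, 5 for Itga6 and 7 for Pdk1 around Dlx1-Dlx2. The values were 3 for Pdk2, Itga3 and Tac4 and 9 for Kat7 around Dlx3-Dlx4. They were 7 for Slc25a13, 2 for Sem1, 6 for Sdhaf3 and 2 for Tac1 around Dlx5-Dlx6.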
